A study of Mus musculus with 14 samples.

Results

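The genes described here encode the digestive enzymes, membrane proteins and acidifying pump of the lysosome, together with glycosidases of neighbouring compartments. A gene was a member when its annotation title began with Cathepsin, ATPase, H+ transporting, Lysosomal, Galactosidase, Glucosidase, Mannosidase, Hexosaminidase or Arylsulfatase. Cathepsins E and G (Ctse, Ctsg) were left out. The rule gave 68 of the 22221 gene clusters with sense-strand tags. They comprised 10 cysteine cathepsins, 1 aspartic cathepsin, 9 subunits of the peripheral V1 sector and 10 of the membrane V0 sector of the vacuolar proton ATPase, and 2 accessory proteins of that pump. The others were 8 lysosomal membrane and other proteins titled Lysosomal, 9 lysosomal glycosidases, 13 glycosidases of other compartments and related proteins, and 6 sulfatases. The study counted 20-base sequence tags next to the DpnII site nearest the 3′ end of each transcript, in total RNA of C57BL6 mice obtained from the National Human Genome Research Institute. There were 14 libraries, 1 from females and 1 from males for each of 7 tissues, namely hippocampus, spinal cord, bone marrow, stomach, liver, parotid gland and pancreas. The labels give no genotype beyond the strain, no treatment, no age and no number of animals, and the liver titles name a right lobe (female) and a left lobe (male). Nothing in them says that the libraries came from separate animals, so p-values measure only the spread between these libraries, and in whole tissue fewer cells of a type and less RNA per cell cannot be told apart.

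Lysosomes degrade proteins, lipids and glycans delivered by endocytosis, phagocytosis and autophagy. Their hydrolases work best at acid pH, which the vacuolar proton ATPase maintains by coupling ATP hydrolysis in V1 to proton movement through V0. The same pump acidifies synaptic vesicles, where the proton gradient drives transmitter uptake, and several of its subunits exist as isoforms encoded by separate genes. Phagocytes, hepatocytes and secretory cells differ widely in how much of each hydrolase they hold. Enzymes of the endoplasmic reticulum and Golgi that trim N-linked glycans share the glucosidase and mannosidase titles without being lysosomal.

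Tag totals ranged from 2194028 in the male stomach to 3834568 in the male parotid gland, of which 60.8% to 92.1% were sense tags of gene clusters. Levels are given as counts scaled to the gene-assigned total of each library (CPM), in which 3 counts equal 0.867 to 1.56 CPM, and pairs of values are female first, male second. The 68 members held 133946 of these counts. CPM moves with the few secretory transcripts that fill the pancreas and parotid libraries, so folds between tissues were taken after TMM scaling, whose factors ran from 0.147 in the male pancreas to 2.49 in the female spinal cord. Of the tissue markers found, 27 of 27 stood higher in both libraries of their own tissue than in all 12 others. The stomach libraries stood apart: log2 CPM of the male and female library correlated at r = 0.833 over 14682 genes, against 0.873 in the pancreas and 0.964 to 0.983 in the other tissues. Counts are therefore also given without them.

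A count of a member is the number of times its tags were read. The sequences shown are the most abundant tags of the genes on which the tissue differences turned, 5′ to 3′, with the DpnII recognition site in capitals and the 16 bases that identify the transcript in lower case.
Ctsb: GATCacccccaattgtatgg
Ctsl: GATCcaagtcatgatttgaa
Ctss: GATCaatgtgtagttactgt
Atp6v0c: GATCacccctcctcattcca
Atp6v1a: GATCccaagaaactacttga
Atp6v1g2: GATCcaatattcccccctga
Atp6v0e: GATCttcctctgcatacagt
Atp6v0e2: GATCtgcagctggggcctct
Laptm5: GATCtacaccctgcctgtgg
Arsg: GATCggtattttagtttcta
The members had 421 distinct sense tags in all, from 1 to 21 per gene. In 41 of the 68 members, 34 of them among the tested genes, a single tag held at least 90% of the counts. A tag is counted once per cDNA, so its level does not scale with transcript length.

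The pump and the proteases followed different tissues. Summed over its 21 members, the proton ATPase reached 3855 and 3962 CPM in hippocampus and 3901 and 3688 CPM in spinal cord. It stood at 961 and 1079 CPM in bone marrow, 746 and 1087 CPM in stomach, 865 and 713 CPM in liver, 414 and 409 CPM in parotid gland and 103 and 73.9 CPM in pancreas. The 4 libraries of the nervous system lay above all others, without overlap. The 11 cathepsins summed to 1865 and 2235 CPM in bone marrow, 2011 and 1843 CPM in spinal cord and 2029.5 and 1397 CPM in liver. They came to 1470.2 and 1461 CPM in hippocampus, 1291 and 1419.5 CPM in stomach, 576 and 574 CPM in parotid gland and 137 and 140.3 CPM in pancreas. Bone marrow, spinal cord and liver overlapped, so that their order lay within the spread of the pairs. The male liver also lay below both hippocampus libraries and the male stomach. Within a library, which no scaling affects, the pump exceeded the cathepsins by a ratio of 2.62 and 2.71 in hippocampus and 1.94 and 2.001 in spinal cord. The ratio was below 1 in all 10 other libraries, with tissue means from 0.468 in liver to 0.716 in parotid gland.

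After TMM scaling the proton ATPase sum was 1733 ± 36.4 CPM (SD, n = 2) in hippocampus and 1549 ± 27.3 CPM in spinal cord, and the other tissue means lay between 531 and 762. The scaled cathepsin sum was highest in liver, at 1634 ± 125, followed by bone marrow at 1400.2 ± 127, and lowest in hippocampus at 649.9 ± 1.78. Spinal cord thus moved from among the highest tissues in CPM to 786 ± 31.1 on the scaled values. The lysosomal glycosidases and sulfatases together were more even, at 186 to 314 scaled CPM in 6 tissues and 136 in pancreas. The sum of all members was 353 ± 36.4 CPM in pancreas and 7296 ± 333 CPM in spinal cord, but 2139 ± 112 and 2978 ± 70.2 after scaling. By CPM 51 of the 56 tested members were lowest in pancreas, as were 68.3% of all tested genes, and after scaling 15 were, against 23.7%.

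**Figure D1:**
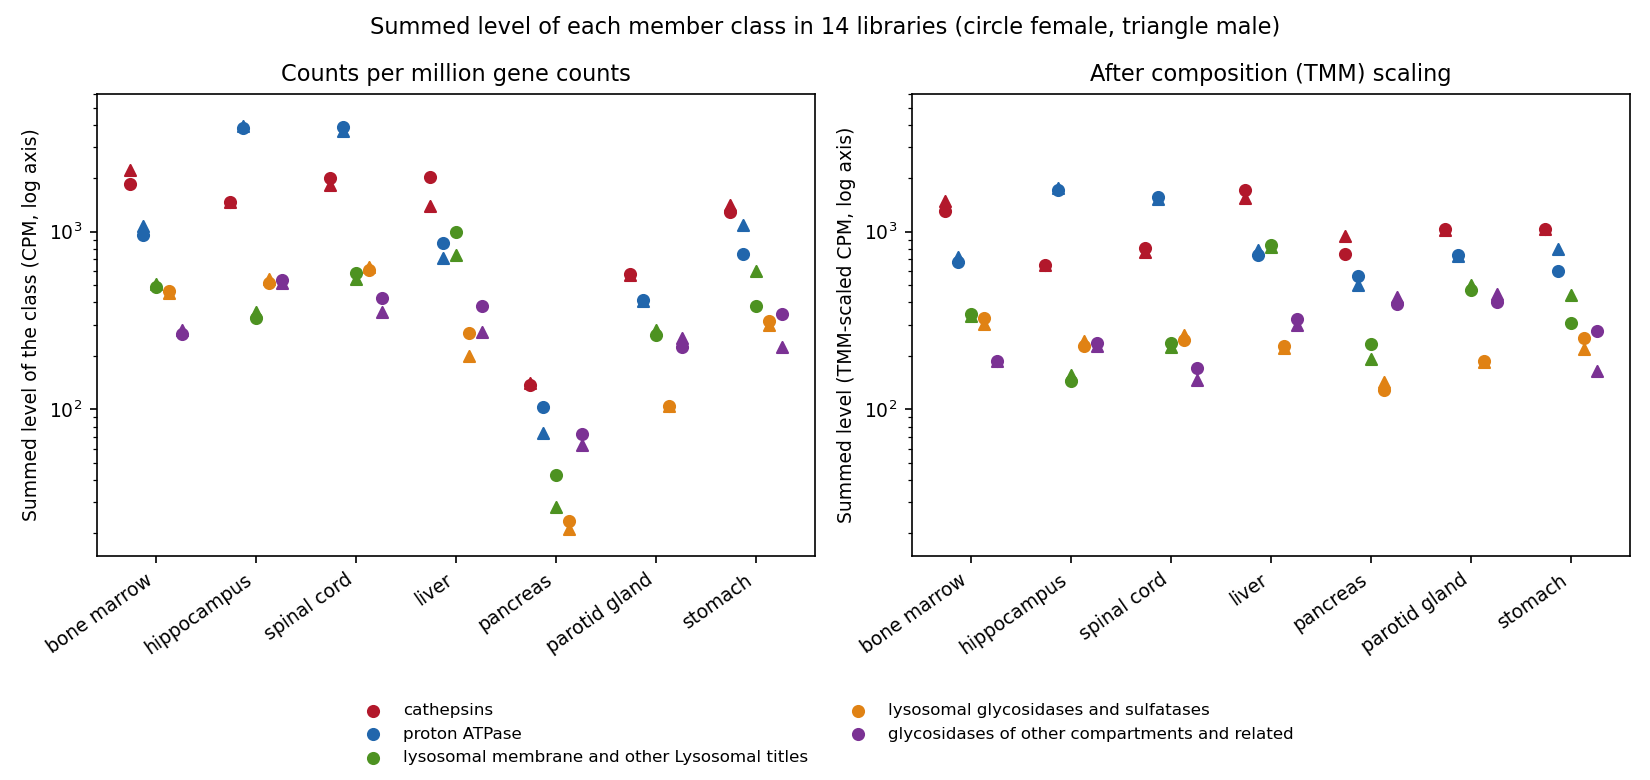
Summed level of the proton ATPase members, the cathepsins and the other classes in each of the 14 libraries (CPM, female and male marked separately). The proton ATPase sum is 3908 ± 76.0 CPM in hippocampus and 3795 ± 151 CPM in spinal cord, above every other library. The mean cathepsin sum in CPM is highest in bone marrow, spinal cord and liver, but the male liver lies below both hippocampus libraries and the male stomach.

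Each tissue was compared with the mean of the other 6 by edgeR's quasi-likelihood test over all 14682 genes with enough counts. A call needed a fold of 2 or more and an adjusted p (Benjamini-Hochberg) below 0.05. Of the 68 members 56 were tested. The other 12 had too few counts: Atp6v0a4, Atp6v1b1, Atp6v1c2, Atp6v1e2, Ctsh, Ctsw, Lamp3, Gla, Arsb, Arsi, Arsj and Manbal. In bone marrow 11 members were higher and 5 lower, where 19.6% and 14.3% of all tested genes were called, which is 19.6% and 8.93% of the members. In hippocampus 14 were higher and 12 lower, 25% and 21.4% of the members against 28% and 12.9% of all genes. In liver 14 were higher and 3 lower, 25% and 5.36% against 18.5% and 10.1%. In spinal cord 13 were higher and 9 lower, 23.2% and 16.1% against 27.3% and 8.67%.

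In pancreas 4 members were higher and 5 lower, 7.14% and 8.93% where the share of all genes was 6.33% and 3.24%. In parotid gland 7 were higher and 3 lower, 12.5% and 5.36% against 11.1% and 3.86%. In stomach 6 were higher and 5 lower, 10.7% and 8.93% against 17.9% and 3.93%. The median log2 fold of the members against that of all genes was -0.15 against -0.19 in bone marrow, -0.02 against 0.15 in hippocampus and 0.17 against -0.16 in liver. It was -0.46 against -0.59 in pancreas, 0.05 against -0.02 in parotid gland, 0.31 against 0.25 in spinal cord and 0.14 against 0.17 in stomach. The share of lower members was above that of all genes in hippocampus, spinal cord, pancreas, parotid gland and stomach and below it in bone marrow and liver, a difference that was not tested and that rests on 3 to 5 members in pancreas, parotid gland and stomach. Some difference among the 7 tissues was called for 46 of the 56, or 82.1%, where 80.6% of all genes were called. Of the 56, 10 were called in no single tissue, 14 in 1, 13 in 2, 9 in 3, 7 in 4, 2 in 5 and 1 in 6.

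The scaling and the stomach libraries bear on these counts. Under library totals without TMM, the median of all genes moved by -2.67 in pancreas, -1.02 in parotid gland, 0.56 in bone marrow, 1.30 in hippocampus, 1.43 in spinal cord and 0.36 in stomach. The higher and lower counts then became 33 and 2 in hippocampus, 40 and 3 in spinal cord, 16 and 2 in bone marrow, 11 and 2 in stomach, 3 and 21 in parotid gland, and 0 and 53 in pancreas. The shares of all genes called higher and lower under that setting were 59.5% and 3.24% in hippocampus, 67% and 1.07% in spinal cord, 31.7% and 8.49% in bone marrow, 27.1% and 1.39% in stomach, 5.12% and 23.6% in parotid gland and 1.31% and 71% in pancreas. The members' shares were 58.9% and 3.57% in hippocampus, 71.4% and 5.36% in spinal cord, 28.6% and 3.57% in bone marrow, 19.6% and 3.57% in stomach, 5.36% and 37.5% in parotid gland and 0% and 94.6% in pancreas. Liver kept 14 and 3 under library totals (18.9% and 9.64% of all genes), but had 12 and 5 under upper quartile scaling (16.3% and 12.6%), which gave 6 and 3 in pancreas (9.59% and 1.42%). Without the stomach libraries the counts were 15 and 13 in hippocampus, 12 and 9 in spinal cord, 12 and 5 in bone marrow, 15 and 5 in liver, 10 and 4 in parotid gland and 5 and 9 in pancreas, of 55 members tested. All genes were then called at 30.3% and 13.9% in hippocampus, 29.9% and 9.6% in spinal cord, 21.6% and 16.2% in bone marrow, 20.8% and 12.9% in liver, 14.6% and 6.6% in parotid gland and 8.65% and 6.74% in pancreas.

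Single libraries also moved the counts. The shares of all genes called with a library left out are not given, here or below. Such changes are therefore not read as results about the members. Without the male bone marrow library 5 members were higher there, and without the female one 3 were lower. Without the female hippocampus 7 were lower, and without the male spinal cord 5. In liver, the lower count was 0 without the male liver, 1 without the male pancreas and 5 without the male stomach. In pancreas it was 2 without either pancreas library, 9 without the female stomach and 8 without the male stomach. Without the male parotid library 4 members were higher, and in stomach 9 were lower without its female library and 8 without its male one.

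**Figure D2:**
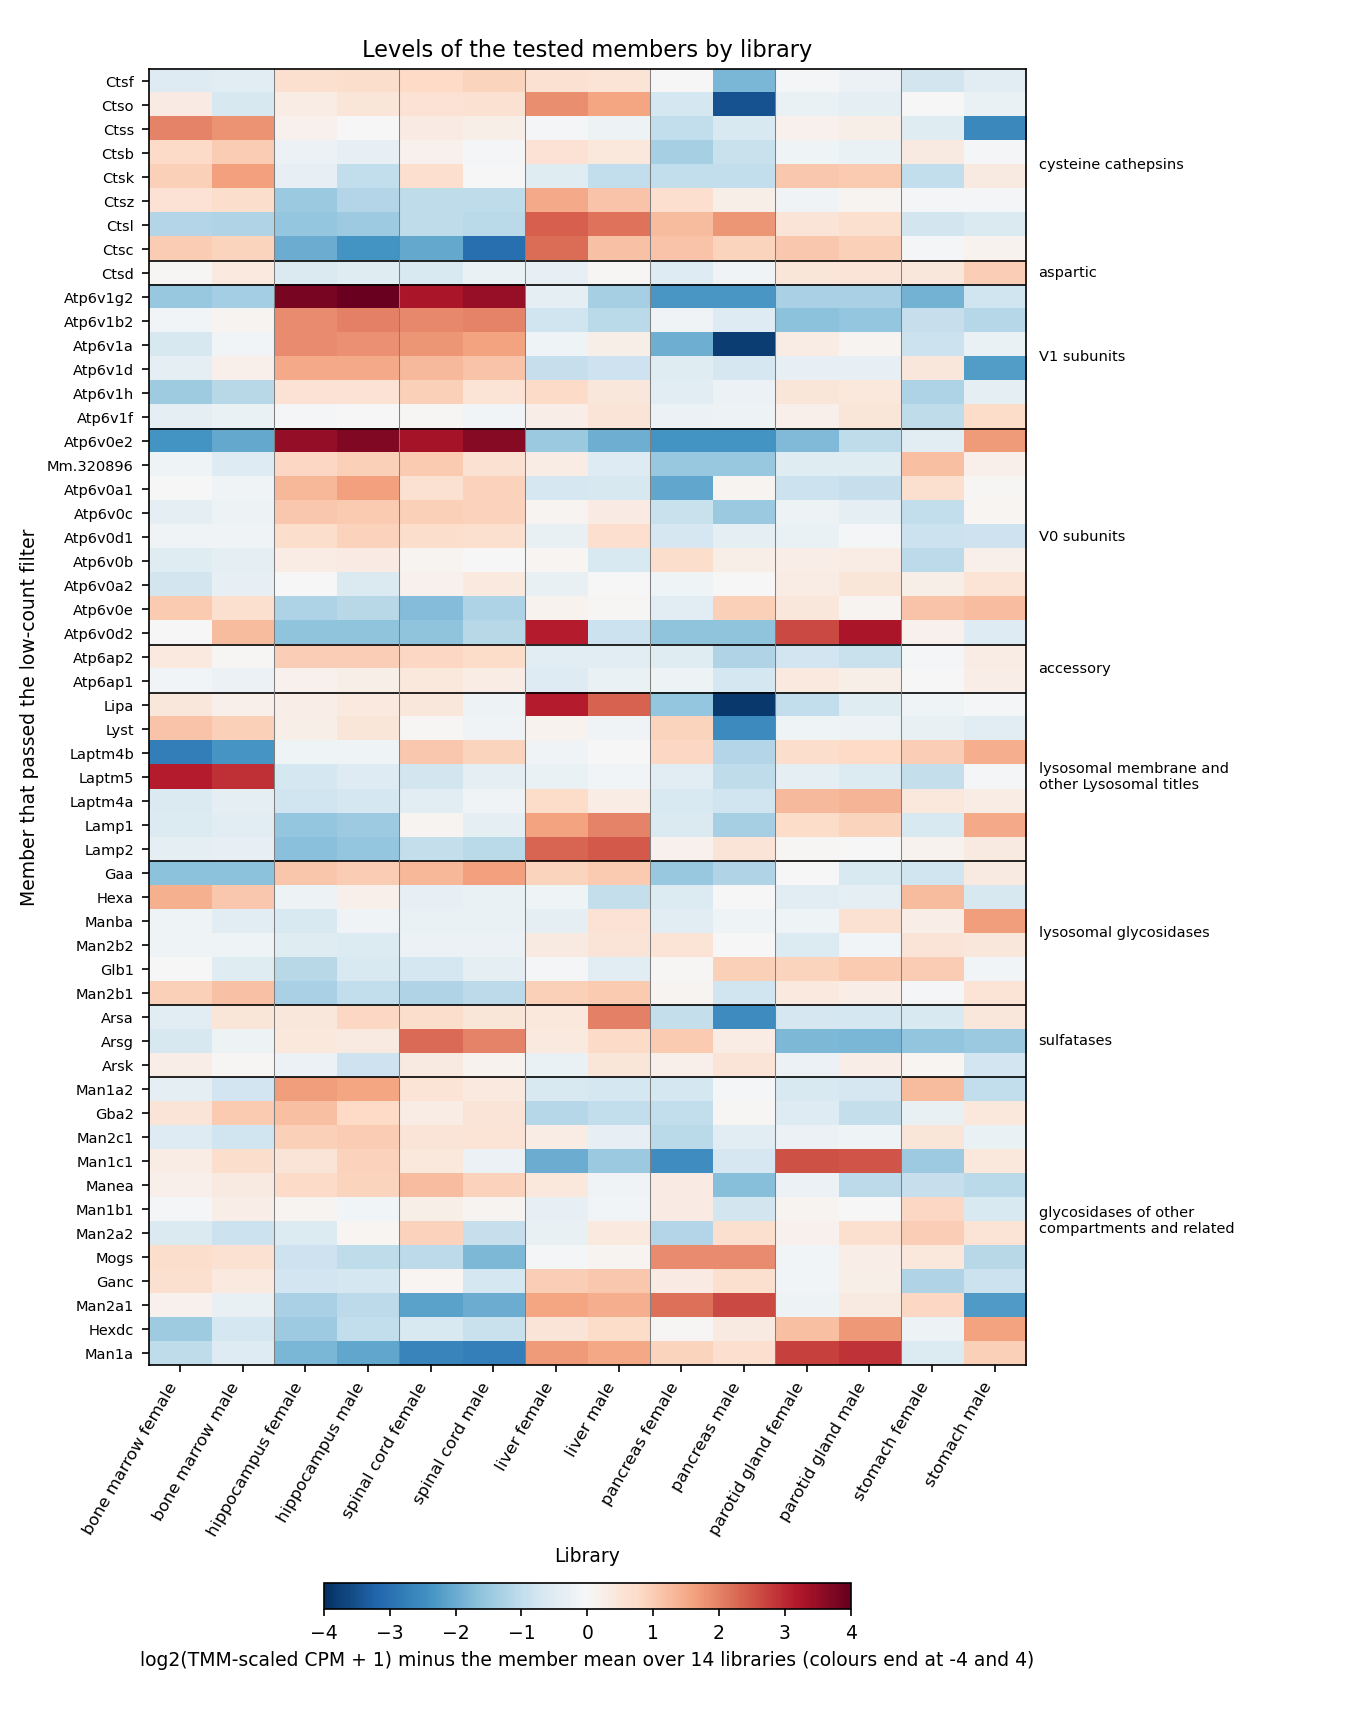
Level of 54 of the 56 tested members in each of the 14 libraries, on the TMM-scaled log2 scale relative to the mean of the gene, ordered by class. Proton ATPase subunits are mostly highest in the 4 hippocampus and spinal cord libraries, while Laptm5 and Ctss are highest in bone marrow and Lamp2, Ctsl and Lipa in liver.

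Among the cathepsins, 4 of the 8 tested cysteine cathepsins were higher in bone marrow and 4 in liver, and 3 were lower in each nervous tissue. Of all genes 19.6% were called higher in bone marrow and 18.5% in liver, and 12.9% lower in hippocampus and 8.67% in spinal cord. Without the male bone marrow library Ctsb (0.87), Ctsc (1.02) and Ctsk (2.41) lost the bone marrow call and Ctss kept it. With library totals the direction changed: 4 cysteine cathepsins were higher and 1 lower in hippocampus, and 5 higher and 1 lower in spinal cord. Of all genes 59.5% and 67% were called higher in these tissues under that setting. Without the female or the male spinal cord library, Ctsz (-1.24 and -1.22) and Ctsl (-1.31 and -1.13) lost the lower call in spinal cord. Cathepsin B (Ctsb), an abundant endopeptidase and carboxydipeptidase, was the most abundant member of the series with 22206 counts. Its level was 1035 and 1296 CPM in bone marrow, 1202 and 981 in spinal cord, 809.7 and 771 in hippocampus, 680.4 and 567 in stomach and 748 and 517 in liver. The glands had less, 212 and 197 CPM in parotid gland and 30.7 and 33.9 in pancreas. The bone marrow pair overlapped the spinal cord pair in CPM but lay above all 12 others after scaling, at 727 and 864 against 167 to 635. Ctsb was called higher in bone marrow (log2 fold 1.05 ± 0.25, adjusted p = 0.00253) and lower in pancreas (-1.29 ± 0.31, adjusted p = 0.0107). The bone marrow fold also dropped below the 2-fold minimum, to 0.96, without the male spinal cord library. The pancreas call was lost without either pancreas library, at -1.03 without the female and -1.64 without the male, and under upper quartile scaling, at -0.83.

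Cathepsin L (Ctsl), an endopeptidase, had its highest level in liver, with 716 and 472 CPM. Other libraries held 50.98 to 142 CPM: 142 and 131 in spinal cord, 92.96 and 102 in parotid gland, 88.9 and 94.9 in hippocampus and 85.8 and 107 in stomach, 72.2 and 74.8 in bone marrow and 50.98 and 58.8 in pancreas. Liver stood above every other library. The fold was 2.67 ± 0.21, adjusted p = 5.59e-09 in liver, where Ctsc (2.13 ± 0.26), Ctso (1.999 ± 0.30) and Ctsz (1.60 ± 0.24) were also called higher. Ctsl was also called lower in bone marrow, at -1.40 ± 0.29, in hippocampus, at -1.76 ± 0.30, and in spinal cord, at -1.23 ± 0.28. The last turned to 0.28 with library totals, and the bone marrow and hippocampus calls were lost there at -0.77 and -0.39. Without the female or the male spinal cord library the spinal cord call was also lost, at -1.31 and -1.13. In pancreas the fold of 1.79 ± 0.23, adjusted p = 2.51e-05 turned to -1.26 with library totals. Within a library Ctsl and Ctsb can be set against each other without scaling: Ctsl had 1443 and 1561 counts to 1508 and 1711 of Ctsb in liver, 141 and 156 to 85 and 90 in pancreas and 197 and 204 to 2824 and 3534 in bone marrow. Pancreas was the only tissue in which both libraries had more counts of Ctsl than of Ctsb.

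Cathepsin S (Ctss), which trims the invariant chain in antigen-presenting cells, stood at 249 and 232 CPM in bone marrow. It had 138 and 123 in spinal cord, 111 and 97.7 in hippocampus, 49.6 and 33.9 in liver, 27.8 and 28.6 in parotid gland and 3.98 and 4.15 in pancreas. The stomach pair was far apart, at 38.6 and 8.84 CPM. Bone marrow lay above all others (2.19 ± 0.29, adjusted p = 6.58e-06). The stomach call of -1.55 ± 0.40 was lost without the male stomach library, at -0.80. Cathepsin C (Ctsc), the dipeptidyl peptidase that activates granule serine proteases, had 124 and 44.8 CPM in liver and 63.4 and 60.9 in bone marrow, with 4.30 to 32.8 elsewhere. Ctsc was higher in liver (2.13 ± 0.26, adjusted p = 2.41e-06) and lower in hippocampus (-2.80 ± 0.38) and spinal cord (-3.23 ± 0.40). Cathepsin Z (Ctsz), a carboxypeptidase, had 96.8 and 57.8 CPM in liver, 60.8 and 69.7 in bone marrow and 21.1 and 26.9 in hippocampus. Its hippocampus fold was -1.63 ± 0.30, adjusted p = 2.14e-04, which missed the call at -0.27 with library totals.

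Cathepsin F (Ctsf) was highest in the nervous system, with 52.3 and 54.03 CPM in spinal cord and 42.1 and 43.5 in hippocampus against 0.377 to 21.3 elsewhere. The spinal cord fold sat at the 2-fold minimum (1.001 ± 0.28, adjusted p = 0.00744). It missed the call when any of 8 libraries was left out, at 0.90 to 1.09, and without both stomach libraries, at 0.89. Ctsh and Ctsw had at most 6 counts in any library and were not tested. Cathepsin D (Ctsd), the aspartic endopeptidase, was the next most abundant cathepsin and among the most even. It stood at 349.5 and 470.2 CPM in bone marrow, 386 and 475 in spinal cord, 357 and 386 in hippocampus and 225 and 224 in liver, 189 and 192 in parotid gland, 30.7 and 32.1 in pancreas and 405 and 642 in stomach. No single tissue was called for Ctsd.

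Summed markers of macrophages and microglia, of neutrophils and of B cells were each highest in bone marrow. The 8 macrophage and microglia markers found of 10 listed summed to 1107 to 1379 CPM in bone marrow, and none was at 0 there. They came to 254 to 278 in hippocampus, 208 to 232 in spinal cord and 115 to 214 in liver. Stomach had 109 to 151, parotid gland 60.5 to 67.0 and pancreas 8.67 to 14.1. Within that list, Tyrobp (848.5 and 694 CPM), C1qa (398 and 267), Cd68, Adgre1 and Aif1 were highest in bone marrow. Cx3cr1 went the other way, at 5.13 and 12.5 CPM there against 34.5 and 24.9 in hippocampus and 17.6 and 21.5 in spinal cord. Csf1r overlapped, at 46.2 and 34.8 in bone marrow, 37.1 and 34.8 in hippocampus and 39.2 and 27.5 in liver. Cd14 overlapped between tissues as well. Neutrophil markers summed to 25558 to 26894 CPM in bone marrow, 319 to 397 in spinal cord and at most 24.4 elsewhere. The 5 B cell markers summed to 1089 to 1105 CPM in bone marrow and at most 26.9 elsewhere. In CPM the cathepsin sums of spinal cord and liver overlapped that of bone marrow, while these marker sums were lower in both. The part of these cells in the cathepsin levels was not tested.

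Of the 17 tested proton ATPase members, 9 were higher and 1 lower in hippocampus, with a median log2 fold of 1.15. In spinal cord 7 were higher and 1 lower, with a median of 0.91. Of all genes 28% and 12.9% were called higher and lower in hippocampus, and 27.3% and 8.67% in spinal cord. In the 5 other tissues between 0 and 2 of the 17 were higher and 1 or 2 lower. Of all genes 6.33% to 19.6% were called higher in those tissues and 3.24% to 14.3% lower. The V1 sector, which hydrolyses ATP, was led by its subunit D (Atp6v1d), part of the central stalk, and by the nucleotide-binding subunits A and B. The catalytic subunit A (Atp6v1a) stood at 413 and 395 CPM in hippocampus and 419 and 362 in spinal cord. It had 43.96 and 66.4 in bone marrow, 50.1 and 51.1 in liver, 32.9 and 55.1 in stomach, 33.03 and 29.5 in parotid gland and 2.17 and 0.377 in pancreas. Both nervous tissues lay above every other library. The fold was 2.16 ± 0.26, adjusted p = 1.58e-06 in hippocampus, 1.96 ± 0.26, adjusted p = 7.32e-06 in spinal cord and -3.13 ± 0.50, adjusted p = 2.56e-04 in pancreas, where the pair rests on 6 and 1 counts.

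Atp6v1b2, the B isoform found in most tissues, had 413 and 445 CPM in hippocampus, 460.1 and 462 in spinal cord and 4.90 to 77.8 elsewhere. It was higher in hippocampus (2.32 ± 0.22, adjusted p = 5.51e-08) and spinal cord (2.30 ± 0.22, adjusted p = 8.17e-08), and lower in parotid gland (-1.91 ± 0.31, adjusted p = 2.13e-04), where 8.19 and 8.96 CPM were found. Liver and stomach were also called lower, at -1.13 ± 0.29 and -1.23 ± 0.29, the former lost without the male liver library at -0.98 and the latter with library totals at -0.80. Atp6v1d had 432 and 428 CPM in hippocampus and 404 and 351 in spinal cord, but 114 and 18.2 in stomach, where the female library lay far above the male. Its folds were 1.71 ± 0.35, adjusted p = 5.45e-04 in hippocampus and 1.34 ± 0.36, adjusted p = 0.00574 in spinal cord, the latter lost without the male spinal cord library, at 1.27. Subunit F (Atp6v1f) differed little, from 26.9 to 114 CPM outside the pancreas, and no tissue was called.

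The V0 sector carries the protons. Its proteolipid c (Atp6v0c), the rotating ring, was the most abundant pump subunit. Its level was 1031 and 1011 CPM in hippocampus and 1037 and 988 in spinal cord, 275 and 247 in liver, 240.0 and 284 in bone marrow, 137 and 311 in stomach, 105 and 93.04 in parotid gland and 21.3 and 11.3 in pancreas. The nervous tissues again lay above all others. Folds were 1.22 ± 0.26, adjusted p = 8.69e-04 in hippocampus and 1.07 ± 0.27, adjusted p = 0.00342 in spinal cord. The spinal cord call was lost without the female stomach library, at 0.99, and without the female spinal cord library, at 1.003. In pancreas the fold of -1.36 ± 0.34 was lost without either pancreas library, at -1.82 without the female and -1.05 without the male, and at -0.92 under upper quartile scaling. Atp6v0b, a related proteolipid, was even, with no tissue called. Atp6v0d1, the common d isoform that links the stalk to the ring, had 238 and 275 CPM in hippocampus and 262 and 239 in spinal cord, with 7.17 to 93.4 elsewhere, and no single tissue was called. A separate cluster that also carries the title of subunit C of V0 had at most 26 counts in a library.

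Several subunits have isoforms, and subunit e, a small membrane protein of V0, is described first. Atp6v0e2 had 133 and 149.9 CPM in hippocampus, 126 and 155 in spinal cord, 3.47 and 21.8 in stomach and 0 to 0.992 elsewhere. Its counterpart Atp6v0e had 72.9 and 57.9 CPM in bone marrow, 68.04 and 80.6 in stomach, 31.8 and 22.7 in liver, 22.3 and 24.1 in hippocampus, 16.6 and 23.4 in spinal cord, 19.00 and 14.7 in parotid gland and 3.25 and 7.17 in pancreas. Of the counts of both, Atp6v0e2 held 85.6% (315 of 368) and 86.1% (379 of 440) in hippocampus and 88.4% (259 of 293) and 86.9% (325 of 374) in spinal cord. It held 4.85% (8 of 165) and 21.3% (42 of 197) in stomach and at most 3 of 54 elsewhere. Exact binomial 95% intervals, which cover counting error only, were 81.6 to 89.02% and 82.6 to 89.2% in hippocampus and 84.2 to 91.8% and 83.1 to 90.1% in spinal cord, and 2.12 to 9.33% and 15.8 to 27.7% in stomach.

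Atp6v0e2 was accordingly called higher in hippocampus (5.85 ± 0.43, adjusted p = 3.86e-09) and spinal cord (5.69 ± 0.43, adjusted p = 9.54e-09). Its stomach call of 2.44 ± 0.66 was lost without the male stomach library, at 0.99. Atp6v0e was higher in stomach (1.41 ± 0.28, adjusted p = 7.42e-04) and bone marrow (1.02 ± 0.28), the latter lost in 5 of the 14 fits with a library left out, at 0.75 without the female bone marrow library and at 0.91 to just under the 2-fold minimum in the others. It was lower in spinal cord (-1.85 ± 0.36, adjusted p = 3.70e-04) and hippocampus (-1.46 ± 0.34). With library totals the nervous tissue folds of Atp6v0e were -0.35 and -0.09 and not called, while the shares of the 2 isoforms do not depend on scaling. The leading e isoform thus differed between the nervous system and the other tissues. Subunit G connects V1 to the stator, and its neuronal isoform Atp6v1g2 had 156 and 174 CPM in hippocampus, 117 and 135 in spinal cord and 0 to 3.47 elsewhere. It was higher in both nervous tissues (5.84 ± 0.35, adjusted p = 3.99e-10 and 5.25 ± 0.37, adjusted p = 3.86e-09). No other G isoform was among the members, so no share can be given.

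Subunit a anchors the stator and directs the pump to its compartment. Atp6v0a1 stood at 163 and 204 CPM in hippocampus, 108 and 132 in spinal cord, 55.04 and 39.5 in stomach, 41.03 and 38.1 in bone marrow and 1.08 to 20.3 in the other tissues. It was higher in hippocampus (1.73 ± 0.28, adjusted p = 6.24e-05). Of the counts of the 3 a isoforms it held 84.5 ± 5.90% in hippocampus, 69.1 ± 0.902% in spinal cord, 67.8 ± 5.65% in bone marrow, 58.9 ± 9.23% in stomach, 52.6 ± 2.96% in liver, 45.2 ± 25.4% in pancreas and 38.4 ± 3.50% in parotid gland (SD, n = 2). Hippocampus and parotid gland stood at the ends of this order, and the pancreas pair, with 3 and 12 counts, was the most widely spread. Atp6v0a2 made up nearly all of the remainder. Atp6v0a4, an isoform of specialised acid-secreting cells, had at most 6 counts in a library.

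Atp6v0d2, the d isoform known from osteoclasts and some macrophages and epithelia, was found in the parotid gland at 9.94 and 15.9 CPM, where it held 25.2% (34 of 135) and 31.98% (55 of 172) of the d counts. In liver the pair was split, at 30.3 and 0.605 CPM, or 32.97% (61 of 185) and 0.643% (2 of 311) of the d counts. Bone marrow had 2.93 and 9.54 CPM, stomach 3.03 and 1.56 and spinal cord 0 and 0.956, and no count was found in hippocampus or pancreas, which allows up to 1.26 CPM in the female hippocampus. The parotid fold was 5.39 ± 0.86, adjusted p = 2.47e-04. The liver fold of 4.20 ± 0.99 rested on the female library and turned to -0.17 without it, and limma-voom gave 1.83 without a call. The sex difference within liver was -5.94 ± 1.17, adjusted p = 0.25, not called, although it was called without the low-count filter. The 5 osteoclast markers found of 6 listed summed to 92.8 to 180.2 CPM in liver and 172 to 189.6 in bone marrow. Nearly all of this was Acp5 in liver, at 91.8 and 178 CPM, where Calcr, Dcstamp and Oscar were at 0 in both libraries. In bone marrow it was Acp5, at 111 and 133 CPM, and Itgb3, at 60.5 and 56.5, while Calcr and Dcstamp were at 0. Their part in the levels was not tested. Foxi1, the defining factor of intercalated-type acid-secreting cells, was at 2.05 and 1.73 CPM in the parotid gland, while the other 2 markers on that list, Slc26a4 and Slc4a1, were at 0 in both parotid libraries. The part of such cells in the parotid level was not tested. The B isoform of those cells, Atp6v1b1, had at most 4 counts in a library, and Atp6v1c2 at most 11, in the female parotid gland.

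**Figure D3:**
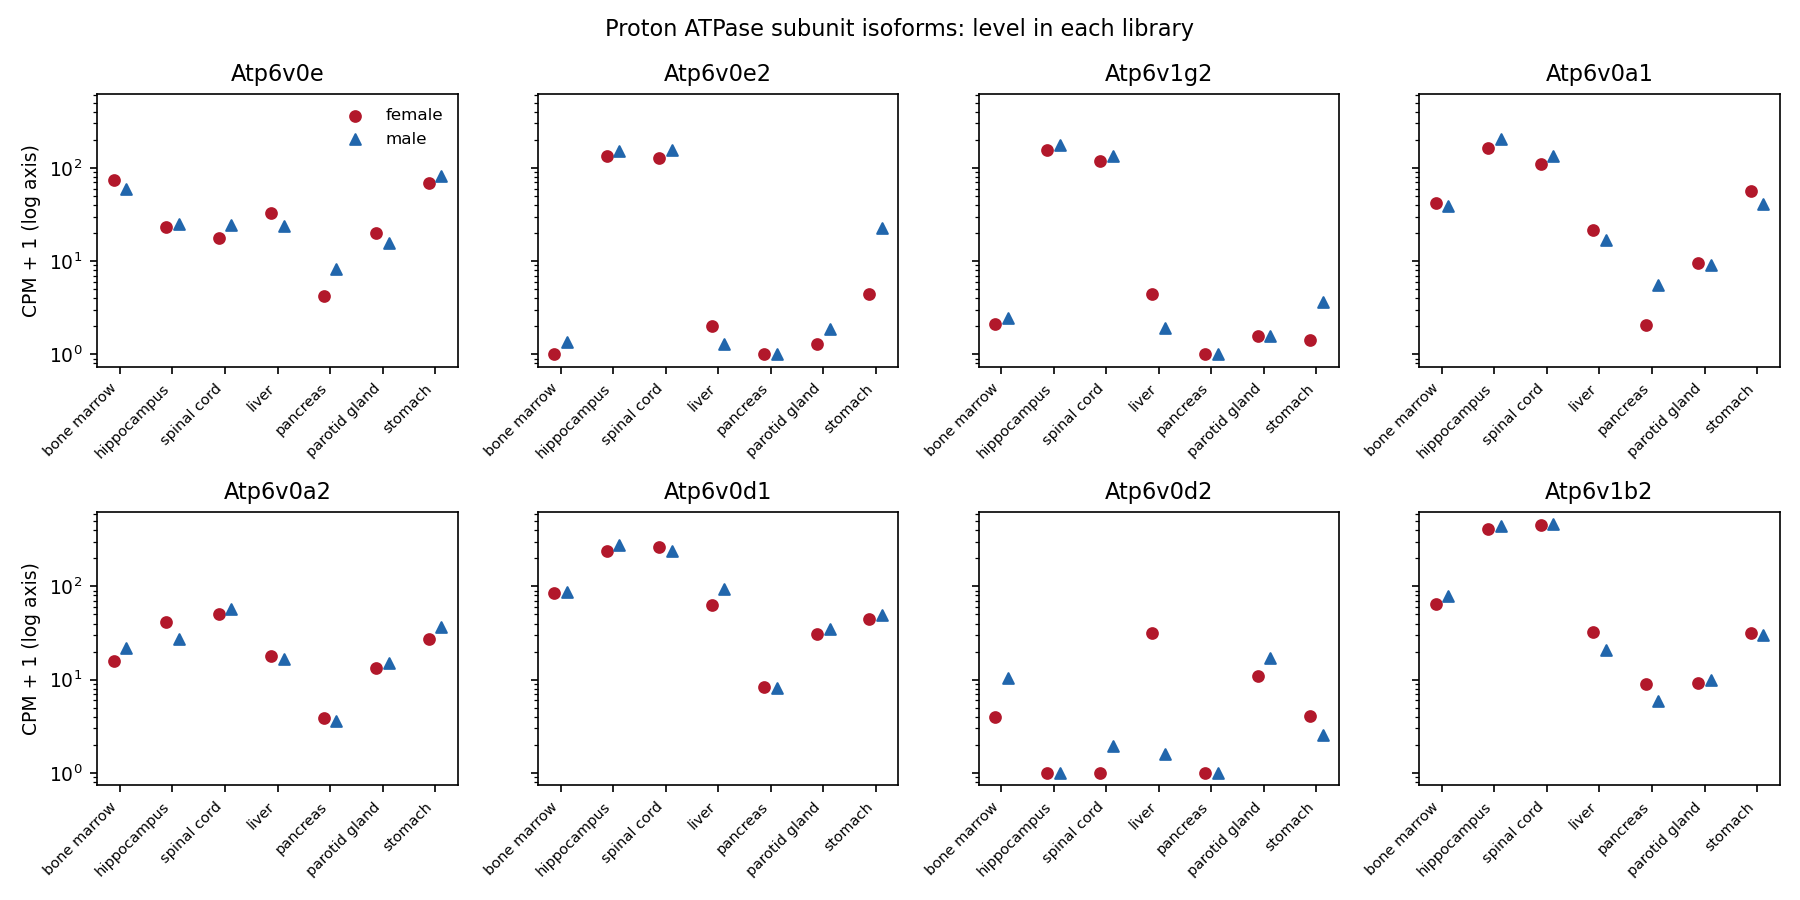
Level of 8 proton ATPase isoform genes in each library, as CPM plus 1 on a log axis, with female and male libraries marked separately. Atp6v0e2 and Atp6v1g2 are near the floor outside hippocampus and spinal cord, except for Atp6v0e2 in the male stomach, at 21.8 CPM. Atp6v0e is spread over all tissues, and Atp6v0d2 is present in both parotid libraries and in liver mainly in the female.

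The accessory proteins are needed for assembly and targeting of the pump. Atp6ap2, also known as the prorenin receptor, had 295 and 297 CPM in hippocampus and 294 and 264 in spinal cord, with 4.15 to 123 elsewhere. Its hippocampus fold was 1.15 ± 0.24, adjusted p = 6.16e-04, and 0.96 without a call under upper quartile scaling. Atp6ap1 had 32.9 to 168 CPM outside the pancreas and no call. Neuron markers moved with the pump: the 6 listed summed to 5538 to 5573 CPM in hippocampus and 6312 to 6775 CPM in spinal cord, and to at most 28.2 CPM elsewhere, with none at 0 in either nervous tissue. Astrocyte and oligodendrocyte markers also stood higher there, at 1442 to 1447 and 4101 to 4462 CPM in hippocampus and 3429 to 3817 and 17168 to 17436 CPM in spinal cord. Which of these cells carried the pump transcripts was not tested. Parietal cell markers reached 4334 to 6739 CPM in stomach and at most 1.21 CPM elsewhere. The stomach proton pump of those cells, a different ATPase, is not among the members.

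Among the 7 tested membrane and other lysosomal genes, liver had 3 higher and hippocampus 2 lower. Of all genes 18.5% were called higher in liver and 12.9% lower in hippocampus. Lamp2 and Lamp1 encode the main glycoproteins of the lysosomal membrane. Lamp2 stood at 395 and 332 CPM in liver, 91.01 and 116 in stomach, 84.00 and 75.1 in spinal cord, 72.5 and 78.5 in bone marrow and 13.7 to 49.4 in the remaining tissues. Liver lay above all other libraries (2.81 ± 0.21, adjusted p = 1.60e-09). Hippocampus was lower (-1.92 ± 0.29, adjusted p = 2.63e-05), but with library totals its fold was -0.56 and not called, and the spinal cord fold of -1.20 ± 0.28 turned to 0.30. Lamp1 had 194 and 189.9 CPM in liver, 141 and 98.02 in spinal cord and 39.6 and 41.9 in hippocampus. The stomach pair of Lamp1 was apart, at 42.9 and 209 CPM, with the male library above both liver libraries. Its hippocampus fold was -1.87 ± 0.43, adjusted p = 0.00142, and -0.51 with library totals, without a call.

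Laptm5, a membrane protein of haematopoietic cells, had 214 and 196 CPM in bone marrow and 1.13 to 30.1 elsewhere (3.63 ± 0.23, adjusted p = 4.71e-10). Its relative Laptm4b showed the reverse, with 1.47 and 2.57 CPM in bone marrow (-3.70 ± 0.48, adjusted p = 4.91e-06) and 69.3 and 59.8 in spinal cord. Laptm4a, the third of this family, was even, at 104 to 243 CPM outside the pancreas. On the scaled values its parotid pair lay above all others (1.54 ± 0.23, adjusted p = 7.34e-05), and with library totals the fold was 0.56 without a call. Lipa, the acid lipase that hydrolyses cholesteryl esters and triglycerides, had 148 and 65.9 CPM in liver, 37.1 and 40.3 in hippocampus, 45.9 and 27.7 in spinal cord, 26.4 and 23.1 in bone marrow and 0 to 17.7 elsewhere. It was higher in liver (3.30 ± 0.28, adjusted p = 1.14e-08) and lower in pancreas (-3.08 ± 0.74, adjusted p = 0.01), where it had 2 and 0 counts. The pancreas fold missed the call without the male pancreas library, at -2.37, and with the most abundant tag only, at -2.08. Lyst, a regulator of lysosome size and traffic, had 16.9 and 15.4 CPM in bone marrow (1.19 ± 0.36, adjusted p = 0.0129), a call lost without either bone marrow library, at 1.26 and 1.19.

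Of the 8 tested lysosomal glycosidases, 3 were higher and 1 lower in bone marrow, 2 and 1 in spinal cord and 2 and 2 in hippocampus. In both liver and stomach 2 were higher. Of all genes 19.6% and 14.3% were called higher and lower in bone marrow and 27.3% and 8.67% in spinal cord. In hippocampus 28% and 12.9% of all genes were, and 18.5% were higher in liver and 17.9% in stomach. The lower count in hippocampus was 0 without the female hippocampus library and with library totals, and 1 without the male hippocampus, male pancreas, male spinal cord or female stomach library. The higher count was 1 in spinal cord without its male library, and in liver 1 without either liver library and 0 under upper quartile scaling. Hexa encodes the alpha subunit of hexosaminidase A, which degrades GM2 ganglioside. It stood at 179.5 and 151 CPM in bone marrow, 143 and 40.6 in stomach, 90.99 and 120.2 in hippocampus, 92.3 and 94.2 in spinal cord, 48.6 and 21.2 in liver, 19.00 and 19.9 in parotid gland and 5.78 and 6.79 in pancreas. It was called higher in bone marrow (1.43 ± 0.32, adjusted p = 0.00137). Acid alpha-glucosidase (Gaa), which degrades lysosomal glycogen, had 120.1 and 145 CPM in spinal cord and 93.9 and 87.8 in hippocampus, against 7.69 and 8.07 in bone marrow. Expression was higher in spinal cord (1.78 ± 0.27, adjusted p = 3.52e-05), hippocampus (1.30 ± 0.28) and liver (1.18 ± 0.29, lost without either liver library and under upper quartile scaling) and lower in bone marrow (-2.08 ± 0.38, adjusted p = 2.42e-04). Lysosomal alpha-mannosidase (Man2b1) went the other way, with 100.4 and 124 CPM in bone marrow and 32.02 and 39.9 in hippocampus.

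Of the 6 sulfatases only 3 had enough counts. Arsg, which acts on heparan sulfate, had the highest level of the sulfatase members in the spinal cord, at 83.02 and 65.5 CPM. Hippocampus had 19.4 and 18.6 CPM, liver 9.92 and 9.98, bone marrow 5.13 and 7.70, pancreas 2.53 and 1.13, stomach 1.73 and 2.08 and parotid gland 0.585 and 0.578. Arsg was higher in spinal cord (2.81 ± 0.27, adjusted p = 9.02e-08) and lower in parotid gland (-2.81 ± 0.56, adjusted p = 0.0014) and stomach (-2.26 ± 0.48). Arsa, which desulfates the myelin lipid sulfatide, had 21.00 and 17.2 CPM in spinal cord, 7.94 and 20.3 in liver and 15.6 and 20.96 in hippocampus. Its liver fold of 1.74 ± 0.41, adjusted p = 0.00269 was 0.96 without the male liver library and then not called. Arsk had 0.723 to 11.2 CPM and no call.

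The glycosidases of other compartments mostly act in the secretory pathway. Of 12 tested, 3 were higher in each of parotid gland, liver and hippocampus, and 4 were lower in hippocampus and 3 in spinal cord. Of all genes 11.1% were called higher in parotid gland, 18.5% in liver and 28% in hippocampus. Those called lower were 12.9% in hippocampus and 8.67% in spinal cord. In hippocampus 1 was lower without its female library and with library totals, and 2 without its male library, while 5 were higher without the female spinal cord library. In liver 1 was higher without its male library. Man1a, a Golgi mannosidase of N-glycan trimming, stood at 128 and 144 CPM in parotid gland and 131 and 90.4 in liver. It had 28.2 and 91.03 CPM in stomach, 22.7 and 34.5 in bone marrow, 11.2 and 10.04 in spinal cord, 19.8 and 16.2 in hippocampus and 11.6 and 7.92 in pancreas. After scaling the parotid pair lay above all others (3.35 ± 0.26, adjusted p = 1.53e-08) and the spinal cord pair below all others (-3.41 ± 0.43, adjusted p = 3.03e-06). Its paralogue Man1a2 was instead high in hippocampus, with 216 and 200.1 CPM (1.90 ± 0.32, adjusted p = 6.77e-05), 106 and 92.8 in spinal cord and 3.25 to 89.3 elsewhere. Man1a and Man1a2 counts were 439 and 499 against 36 and 35 in parotid gland and 47 and 41 against 513 and 506 in hippocampus, so that the leading paralogue differed between them in both pairs. Man1c1, a further Golgi paralogue, was higher in parotid gland (3.33 ± 0.39, adjusted p = 4.43e-06) at 17.8 and 17.3 CPM.

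Glucosidase I (Mogs), the first enzyme to trim the N-glycan in the endoplasmic reticulum, had 18.4 and 14.7 CPM in pancreas against 13.7 to 61.6 elsewhere, and 100.3 and 99.8 against 6.94 to 43.2 after scaling. The pancreas was thus among the lowest tissues by CPM and the highest by scaled CPM, and the fold of 2.22 ± 0.31, adjusted p = 6.73e-05 turned to -0.81 with library totals. The sign of Golgi mannosidase II (Man2a1) in pancreas also turned, from 2.80 ± 0.40, adjusted p = 8.15e-05 with TMM to -0.24 with library totals. Manea, an endomannosidase of the Golgi, had 65.9 and 51.2 CPM in spinal cord (1.28 ± 0.29, adjusted p = 0.00158) and 42.1 and 46.3 in hippocampus. Neutral alpha-glucosidase C (Ganc) had 2 and 3 counts in stomach (-1.83 ± 0.63, adjusted p = 0.0433), a call lost in all but 1 of the 14 fits with a library left out, at -1.44 to -2.29.

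Some members differed little. Man1b1, an alpha-mannosidase of the early secretory pathway, had the smallest range between tissues, 0.43 on the log2 scale (adjusted p = 0.954 for any difference), with 16.8 to 47.3 scaled CPM outside the pancreas. Atp6v1f followed with a range of 0.73 (0.583), Atp6ap1 with 0.80 (0.196) and Atp6v0b with 0.95 (0.268). These are 2 pump subunits and an accessory protein of the pump, and the next in order, Atp6v0a2, at 0.97 (0.141), is a further subunit. In all, 10 members had no call in the test over all 7 tissues, the others being Atp6v0a2, Arsk, Man2b2, Lyst, Manba and Man2a2, of which Lyst and Manba were called in a single tissue. A p above the threshold does not show that these levels are equal.

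The nearest pair of tissues, hippocampus and spinal cord, was compared directly. Only Arsg was called among the 56 members, 1.79%, where 6.38% of all genes were. It was lower in hippocampus than in spinal cord (-1.84 ± 0.37, adjusted p = 0.00441), at 19.4 and 18.6 against 83.02 and 65.5 CPM without overlap. The call was lost without either hippocampus library, at -1.83 without the female and -1.76 without the male, and without the female spinal cord library, at -1.60, so the count was then 0. Without both stomach libraries the count was 4, when Lamp1 (-1.43), Laptm4b (-1.23) and Man1a2 (1.18) joined Arsg. They also joined when a single stomach library was left out. With all libraries their adjusted p was 0.0917, 0.0863 and 0.157. The share of all genes called without stomach libraries is not given here, so the rise is not read as a result about the members. Pump subunits thus showed no called difference between the 2 nervous tissues, and Atp6v0a1, with 0.73 ± 0.41, Atp6v1a, with 0.17 ± 0.38, and Atp6v0c, with 0.13 ± 0.38, lay within the 2-fold limit.

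No member was called for sex over the 7 tissues, where 0.0613% of all genes were. At an unadjusted p under 0.05, 2 of the 56 members and 487 of all genes passed: Arsa, at 0.69 ± 0.31 male over female, and Hexdc, at 0.75 ± 0.35. DESeq2 and limma-voom also called no member. Within single tissues, the fold of a tissue against that in the other 6 was called for no member in the 6 tissues other than stomach, where 3 of 88092 tests over all genes passed (0.00341%). Without the low-count filter 1 member was called in liver, Atp6v0d2, which was lower in the male. Each such test rests on 1 female and 1 male library and assumes that they vary like the other pairs.

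The stomach pair differed for 18 of the 56 members, 32.1%, where 21.9% of all genes were called. The male library was higher for 9, among them Lamp1, Atp6v1f, Man1a, Atp6v0b, Atp6v0e2, Atp6v0c, Man1c1 and Gaa. It was lower for 9, among them Man2a1, Atp6v1d, Man1a2, Hexa, Ctss, Man1b1, Mogs and Glb1. Man2a1 had 162 and 15 counts and Lamp1 99 and 401. Base composition of the tag moved with this difference. The most abundant tags of the 9 higher members held 50% to 68.75% G and C in their 16 variable bases (median 56.25%), those of the 9 lower members 6.25% to 43.75% (median 31.25%), and those of the 38 others 18.75% to 68.75% (median 43.75%). Over all tested genes the medians were 56.25% for 1346 higher, 25% for 1872 lower and 43.75% for 11464 not called. Across genes, which are not independent replicates, the male over female ratio in stomach ran with tag composition at a Spearman rho of 0.572 over all 14682 and 0.593 over the 56 members. In the other 6 tissues rho was -0.071 to 0.091 over all genes and -0.108 to 0.273 over the members. Of the 6 members called higher in stomach than in the other tissues, 4 lost the call without the male library, among them Atp6v0e2 at 0.99, Manba at 0.75 and Hexdc at 0.21. Atp6v0e, at 1.36, and Laptm4b, at 1.24, kept it. Sex, animal and library cannot be told apart in a single pair, and the part of base composition in the result was not tested.

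**Figure D4:**
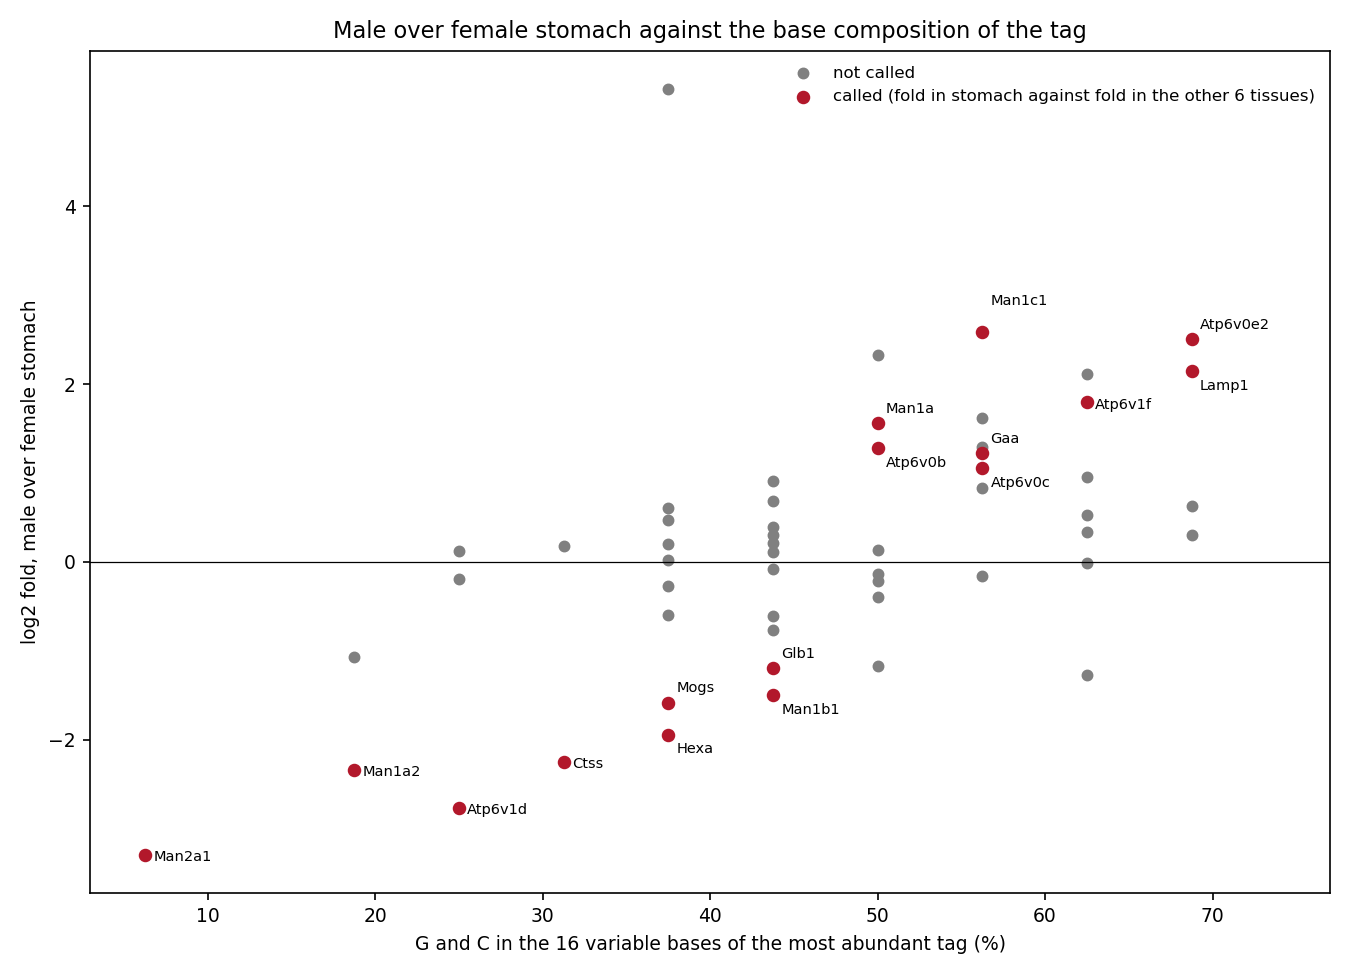
Log2 fold of the male over the female stomach library for 54 of the 56 tested members against the percentage of G and C in the 16 variable bases of the most abundant tag. The 8 members drawn as called higher in the male lie at 50% to 68.75% and the 8 drawn as called lower at 6.25% to 43.75%.

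Some members had more than 1 abundant tag, and 10 had a further tag with at least 10% of the counts and at least 100 counts. Of these, 4 are shown because the shares of their tags differed between libraries. Tags of a gene next to different DpnII sites can come from transcripts with different 3′ ends or from incomplete digestion, which these data do not separate.
Lipa, tag A: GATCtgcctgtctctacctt
Lipa, tag B: GATCagatgtgctgtcttta
Man1a, tag A: GATCcacagattctgcctgt
Man1a, tag B: GATCtcagaacaccaaaaac
Lamp2, tag A: GATCctaacctaagatgcct
Lamp2, tag B: GATCtgacttcaataaatat
Ctsd, tag A: GATCcctcccagaaacctgc
Ctsd, tag B: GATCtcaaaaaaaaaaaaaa
Ctsd, tag C: GATCtctaaaaaaaaaaaaa
For Lipa, the first tag held 286 of 298 and 201 of 218 counts in liver but 13 of 88 and 15 of 102 in hippocampus, 35 of 94 and 24 of 58 in spinal cord and 29 of 72 and 34 of 63 in bone marrow. The second tag held 74 of 88 and 87 of 102 in hippocampus and 2 of 298 and 6 of 218 in liver. Exact binomial 95% intervals of the first tag were 93.1 to 97.9% and 87.8 to 95.4% in liver and 8.11 to 23.9% and 8.47 to 23.1% in hippocampus, which do not overlap. For Man1a, the first tag held 333 of 439 and 374 of 499 counts in parotid gland, 55 of 65 and 132 of 175 in stomach, 15 of 47 and 14 of 41 in hippocampus and 4 of 23 and 7 of 21 in spinal cord, so that it was the minority tag in the nervous tissues. For Lamp2, the first tag held 432 of 797 and 652 of 1098 counts in liver and 50 of 198 and 71 of 214 in bone marrow, and in stomach 77 of 210 and 158 of 223.

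For Ctsd, the first tag identifies the transcript and the other pair runs into the poly(A) tail, leaving few bases that identify a transcript. The tail tags held 67.9% of Ctsd counts in the female stomach and 4.78% in the male, and 11.3% to 48.2% in the other libraries. Without them the stomach levels changed from 405 and 642 CPM to 130.0 and 611 CPM, and the hippocampus levels from 357 and 386 to 196 and 229.8 CPM. The lack of a single-tissue call for Ctsd thus holds for the sum of its tags. Without tags that end in 8 or more A, and with the most abundant tag only, Ctsd was called higher in parotid gland. Over all gene counts, tags that end in 8 or more A made up 1.14%.

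**Figure D5:**
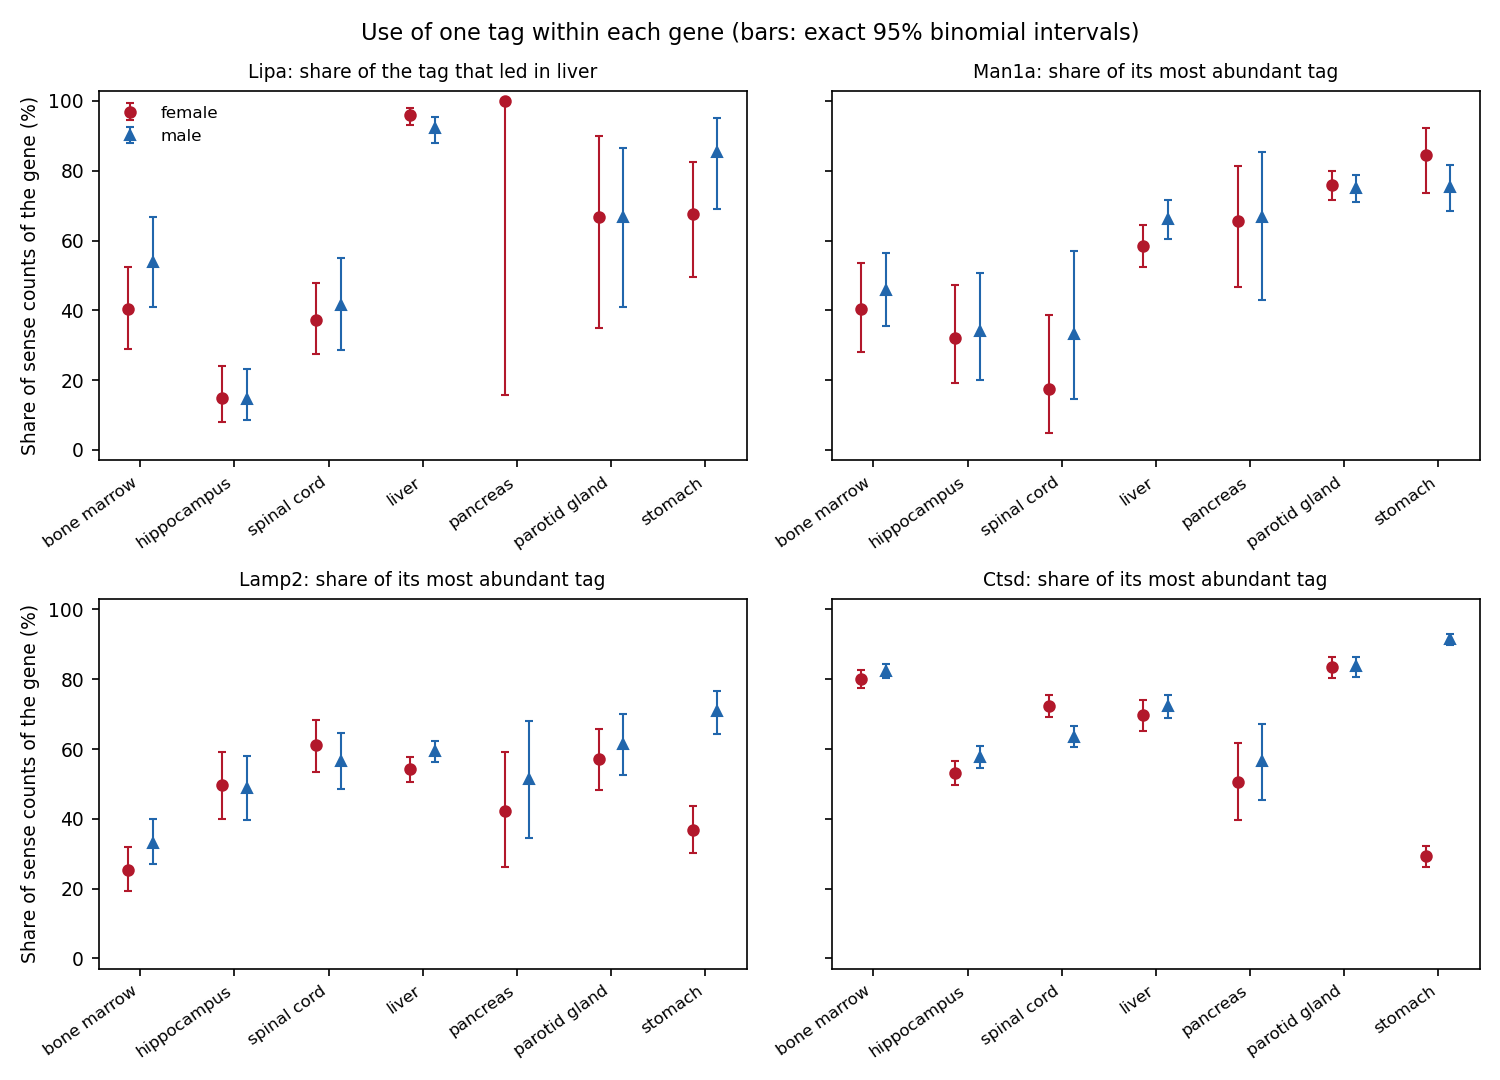
Share of the most abundant tag in the sense counts of Lipa, Man1a, Lamp2 and Ctsd in each library (percent, with exact 95% binomial intervals that cover counting error only). The Lipa tag stands at 96.0% and 92.2% in liver and near 15% in hippocampus, and the Lamp2 and Ctsd tags are apart between the female and male stomach.

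Other genes of the lysosome, listed apart from the members, gave a wider background. Of 51 listed, 49 were matched and 48 tested, and some difference among tissues was called for 40, or 83.3%, near the 80.6% of all genes. They were higher and lower in 15 and 7 cases in liver, 9 and 11 in hippocampus, 7 and 7 in spinal cord, 7 and 3 in bone marrow, 5 and 3 in stomach, 5 and 0 in parotid gland and 3 and 3 in pancreas. As shares of the 48 these were 31.2% and 14.6% in liver against 18.5% and 10.1% of all genes, 18.8% and 22.9% in hippocampus against 28% and 12.9%, and 14.6% and 14.6% in spinal cord against 27.3% and 8.67%. They were 14.6% and 6.25% in bone marrow against 19.6% and 14.3%, 10.4% and 6.25% in stomach against 17.9% and 3.93%, 10.4% and 0% in parotid gland against 11.1% and 3.86%, and 6.25% and 6.25% in pancreas against 6.33% and 3.24%. Acp5, the tartrate-resistant phosphatase, had 91.8 and 178 CPM in liver (3.80 ± 0.33, adjusted p = 1.72e-08) and 111 and 133 in bone marrow (3.04 ± 0.33, adjusted p = 6.53e-07). Slc11a1, a metal transporter of phagosomes, was higher in bone marrow (3.44 ± 0.28, adjusted p = 1.18e-08). Ids, a heparan and dermatan sulfate sulfatase, had 756 and 819 CPM in hippocampus (3.29 ± 0.29, adjusted p = 2.70e-08) and 481 and 474 in spinal cord (2.30 ± 0.30, adjusted p = 6.18e-06). Cd63, a membrane protein of late endosomes, was lower in liver (-3.33 ± 0.39, adjusted p = 1.12e-06) and higher in stomach (2.42 ± 0.24, adjusted p = 2.30e-07), with 5.95 and 4.84 and 135 and 297 CPM. Legumain (Lgmn), the protease that processes cathepsins, was higher in spinal cord (1.55 ± 0.25, adjusted p = 7.41e-05) and lower in pancreas (-2.96 ± 0.56, adjusted p = 0.00162). In hippocampus against spinal cord 3 of the 48 were lower and none higher, 6.25% where 6.38% of all genes were called in either direction, and none was called for sex over the 7 tissues.

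Many lysosomal genes carry the palindrome CACGTG near their start, the core of the element recognised by TFEB and related factors. In windows from 250 bases before to 50 bases after the start, as given by RefSeq on build GRCm38.p6, CACGTG occurred in 12 of the 54 members with a window, 22.2%, and in 2187 of 27025 genes, 8.09%. The letters read the same on both strands. The longer TCACGTGA, each copy of which also counts as a CACGTG, occurred in 5 of the 54, 9.26%, and in 1.12% of all genes. Its members were Atp6v0d1, Atp6v0e, Atp6v1a, Ctsd and Gla, and CACGTG alone was found in Arsa, Atp6v0b, Ctsf, Ctsl, Gaa, Glb1 and Lamp1. The windows of Lamp1 on chr8:13158911-13159210 (plus strand) and of Ctsd on chr7:142387778-142388077 (minus strand) are shown, 5′ to 3′ on the strand of the gene, Lamp1 because it has the most matches and Ctsd because it holds the longer form and is an abundant hydrolase, with CACGTG in capitals.
Lamp1: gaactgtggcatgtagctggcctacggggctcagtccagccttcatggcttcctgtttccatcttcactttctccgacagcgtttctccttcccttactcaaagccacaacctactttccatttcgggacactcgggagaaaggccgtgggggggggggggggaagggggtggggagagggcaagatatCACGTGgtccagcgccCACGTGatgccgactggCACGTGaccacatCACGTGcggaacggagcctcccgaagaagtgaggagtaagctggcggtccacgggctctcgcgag
Ctsd: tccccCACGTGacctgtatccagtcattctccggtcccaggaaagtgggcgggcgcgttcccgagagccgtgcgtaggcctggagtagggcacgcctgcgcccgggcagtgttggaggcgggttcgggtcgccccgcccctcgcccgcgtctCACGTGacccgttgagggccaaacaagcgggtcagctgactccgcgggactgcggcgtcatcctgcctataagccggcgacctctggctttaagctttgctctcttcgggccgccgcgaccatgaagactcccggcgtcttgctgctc
Lamp1 has 4 matches, Ctsd, Atp6v0b and Gla have 2 each, and the others have 1. Of the 11 of these genes that were tested, 4 were called higher in liver (Ctsl, Lamp1, Gaa and Arsa), where 18.5% of all genes were. In spinal cord 3 were (Atp6v1a, Gaa and Ctsf) and in hippocampus 2 (Atp6v1a and Gaa), against 27.3% and 28% of all genes. Atp6v0e was called higher in stomach and bone marrow, Ctsl also in pancreas and Glb1 in parotid gland. Ctsd, Atp6v0b and Atp6v0d1 were called in no single tissue. Lower calls were those of Ctsl in bone marrow and both nervous tissues and of Atp6v0e in both nervous tissues. Lamp1 and Glb1 were also lower in hippocampus, Gaa in bone marrow and Atp6v1a in pancreas. Some of these calls were lost in other settings, among them Gaa and Arsa in liver, Ctsf in spinal cord and Atp6v0e in bone marrow. The match is a description of the letters and not of a bound site.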

How the data were processed

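Tag counts of 14 mouse libraries were used, 1 female and 1 male for each of 7 tissues. The deposited files list each 20-base tag with its count, a cluster identifier, a match code and a title. Per the labels' protocols, cDNA was cut with DpnII and 20 bases next to the 3′-most site were cloned and sequenced on beads. Which aligner, cluster build and code legend were used is not given in the sources used here. Codes 1 to 4 were taken as sense matches and 11 to 16 as reverse-strand matches, and sense counts were summed per cluster. Of the members, 30 were named through a RefSeq accession and 38 from the title. Members, gene lists and rules were chosen with earlier results of these data known.

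Counts were tested with edgeR 4.0.16 (limma 3.58.1, R 4.3.3) after its low-count filter and TMM scaling, with quasi-likelihood tests in a model of tissue and sex over all 14 libraries. P-values were Benjamini-Hochberg adjusted over all 14682 genes, and SEs belong to log2 folds. The 7 tissue comparisons share all libraries and are not independent. Scaled CPM divides by the TMM-scaled library size. Calls needed an adjusted p under 0.05 and, except for sex over all tissues, a fold of at least 2. The code was tested on simulated counts.

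Named are up to 4 members per class by mean CPM, up to 4 called members per tissue and direction whose libraries lie beyond the 12 others, isoforms of pump subunits, members called for sex, and the 4 with the smallest range. Isoforms of subunit e and tags with differing shares were added after their values were seen, as were a few members named beside these, such as Man2b1. Alternatives were library totals, DESeq2 1.42.0 size factors and test, upper quartile scaling, limma-voom, no filter, no sex term, no minimum fold, the most abundant tag only, and each library left out. Leaving out tags that end in 8 or more A, and both stomach libraries, was chosen after seeing the data. Counts and sums cover all members, but the single values of 2 members are not reported here. Precision is limited by 2 libraries per tissue. No share, interval or bound covers more than counting error.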

Additional observations from a re-analysis of the deposited data

Results flagged for a closer look

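The male minus female difference in stomach, set against that in the other 6 tissues, passed the test for 18 members. On the log2 scale the male library was higher for 9, among them Man1c1 (2.50), Atp6v0e2 (2.23), Lamp1 (2.13), Atp6v1f (1.68), Man1a (1.53), Atp6v0b (1.43), Gaa (1.19) and Atp6v0c (1.07). It was lower for 9, among them Man2a1 (-3.39), Atp6v1d (-2.84), Man1a2 (-2.21), Ctss (-2.14), Hexa (-1.89), Mogs (-1.50), Man1b1 (-1.45) and Glb1 (-1.31). Each rests on 1 library per sex. The calls of Man1c1 (2.42 without the low-count filter, 2.04 with the most abundant tag only), Gaa (1.11 and 1.13 under the same settings), Atp6v0c (0.99 without the filter) and Glb1 (-1.11 with library totals) were lost in those settings.

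Tags that match the reverse strand of the members were not part of the comparisons. They summed to 8079 counts beside 133946 sense counts, or 5.69%, above the limit that a count of 0 allows. They were found for 63 members, and none had more reverse than sense counts. The share per library ran from 2.68% in the male stomach to 8.25% in the male pancreas. Atp6v0c had 878 and Lamp2 842 reverse counts, while the reverse share was 25.2% for Man2a1, 21.4% for Atp6v1g2 and 18.8% for Lamp2.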

How the results depend on the processing

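Precision was limited by 2 libraries per tissue, a TMM factor in pancreas far from those of the other tissues, and pancreas levels that rest on few counts. Of 130 calls of single members, 119 kept their direction in every setting and 59 kept the call in all. No paired analysis was possible because the labels carry no replicate numbers to pair by. Sex, which each tissue holds once, was a term of the model. Without it, the 112 calls of single members that were fitted again kept their call and direction. Calls were added, however. Among the added calls, 1 V0 subunit was lower in stomach, against 0 with the term. In pancreas 2 lysosomal glycosidases were lower, against 1. With library totals, members called higher and lower were 33 and 2 in hippocampus, 40 and 3 in spinal cord, 16 and 2 in bone marrow, 11 and 2 in stomach, 3 and 21 in parotid gland, and 0 and 53 in pancreas. The fold then changed sign for Mogs (0.24) and Glb1 (0.25) in hippocampus, for Man2a1 (-0.24), Mogs (-0.81), Ctsc (-1.75) and Ctsl (-1.26) in pancreas, and for Ctsz (0.25), Man2b1 (0.11), Lamp2 (0.30) and Ctsl (0.28) in spinal cord. Atp6v0d2 in liver turned to -0.17 without the female liver library and was 5.76 without the male. The lower count in liver was 5 with upper quartile scaling, with DESeq2 and without both stomach libraries. In pancreas it was 3, 12 and 9 with upper quartile scaling, limma-voom and without both stomach libraries. For hippocampus against spinal cord the count was 2 with DESeq2, 2 without the filter and 4 without both stomach libraries. The shares of all genes called in these settings are not given here. Within liver 1 member was called for sex without the filter.

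With 1 library left out, the higher and lower counts were 12 to 17 and 7 to 12 in hippocampus, 9 to 15 and 5 to 10 in spinal cord, 5 to 13 and 3 to 6 in bone marrow, 10 to 15 and 0 to 5 in liver, 5 to 8 and 4 to 9 in stomach, 4 to 9 and 2 to 4 in parotid gland, and 3 to 5 and 2 to 9 in pancreas. Any tissue difference was called for 44 to 50, hippocampus against spinal cord for 0 to 4, and sex for 0. As the shares of all genes in these fits are not given, the ranges are not read as results about the members. The sum of all members moved on the TMM scale from 6765 to 2999 CPM in hippocampus, 4298.5 to 2938 in bone marrow, 353 to 2139 in pancreas, 1599.7 to 2859.6 in parotid gland, 7296 to 2978 in spinal cord and 3355 to 2566 in stomach. With the most abundant tag only these sums were 6122, 3799, 305, 1412, 6544 and 2917.5 CPM. Isoform shares then became 85.0% for Atp6v0e2 in hippocampus, 22.5% for Atp6v0d2 in parotid gland, and for Atp6v0a1 91.5% in hippocampus, 78.3% in pancreas, 49.1% in parotid gland, 80.4% in spinal cord and 69.5% in stomach. Without tags ending in A the hippocampus sum was 6605 CPM. Leaving out each library was not run for sex within a tissue, and the cause of these changes was not tested.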
